A study of Mus musculus with 4 samples.

Results

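FoxO1 chromatin immunoprecipitation signal was described at the genes of the cytosolic ribosome's own proteins. Members were taken by gene symbol from the deposited table of merged regions: Rpl or Rps followed by a number, with or without a suffix letter (a, l, x or y) and a further digit, together with Rplp0, Rplp1, Rplp2 and Rpsa. The rule found 75 genes of the 11718 with at least 1 region, and these 75 genes held 115 of the table's 16126 regions. Each gene was read at 1 region, the one whose signal averaged highest across the libraries, so the 75 genes drew on 73 regions. A region was shared by 2 members in 2 cases, in one of them by Rps2 and Rpl3l. No filter on low values was applied, and every member with a region is counted below.

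All mice were wild-type C57BL/6 males aged 12 weeks, and hearts were taken after 7 days. Control mice (Veh/Sham) received both vehicle injections and a sham operation. A further set received isoproterenol, a beta-adrenergic agonist, under the skin at 3 mg/kg per day (Iso), and another underwent transverse aortic constriction (TAC), a surgical pressure overload of the left ventricle. Hearts of 3 mice were pooled per condition, frozen, and precipitated with an antibody against FoxO1 to give 1 library, so there was no spread between replicates and no test between conditions, and every difference is one between 2 libraries. Where 3 signals or peak depths follow each other below, they are those of Veh/Sham, Iso and TAC, in that order. The same control library served both treatments. How the deposited signals were scaled between libraries is not known, and every ratio and count between libraries below depends on it. Libraries came from whole hearts, so the cell types behind a signal are not known, and the series' input library, DNA pooled from all samples, was not analysed here.

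The ribosome is built from ribosomal RNA and ribosomal proteins that form a small subunit, which reads the messenger RNA, and a large subunit, which joins amino acids. Ribosomal protein genes are housekeeping genes with short, strongly transcribed promoters. Their messenger RNAs begin with a run of pyrimidines, the TOP motif, through which the growth regulator mTOR controls their translation. FoxO1 acts on the opposite side of growth signalling: insulin and Akt send it out of the nucleus, and in the nucleus it favours genes of stress resistance and protein breakdown. Hypertrophy of the heart involves a rise in protein synthesis and in ribosome content.

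Promoter sequences are shown for 6 members that the results below turn on. Rplp2 had the highest signal of the members with a RefSeq promoter window, Rps26 held almost the same signal in all 3 libraries, and Rpl41 was the member with the forkhead letters TGTTTAC. Rpl38 and Rps6 had higher signal in TAC, and Rps19 in Iso. Each line runs 5′ to 3′ on the gene's own strand, from 250 bases before the RefSeq start to 20 bases from it on (RefSeq, GRCm38.p6, the assembly that mm10 names). Capitals mark matches, on either strand, to the forkhead letters TGTTTNC, to the ETS letters CCGGAAG and to the Zbtb33 (Kaiso) palindrome, and TOP-like runs of at least 5 pyrimidines that begin with C within 10 bases of the start. The windows were chr7:141447401-141447670 (plus strand), chr10:128626487-128626756 (minus), chr10:128549149-128549418 (minus), chr11:114668330-114668599 (plus), chr4:86857348-86857617 (minus) and chr7:24884342-24884611 (plus).
Rplp2: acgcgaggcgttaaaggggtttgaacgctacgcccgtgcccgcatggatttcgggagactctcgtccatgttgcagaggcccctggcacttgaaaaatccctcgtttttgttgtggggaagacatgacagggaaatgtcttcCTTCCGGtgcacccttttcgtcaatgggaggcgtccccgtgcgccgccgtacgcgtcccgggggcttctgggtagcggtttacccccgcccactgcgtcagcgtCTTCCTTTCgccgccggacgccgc
Rps26: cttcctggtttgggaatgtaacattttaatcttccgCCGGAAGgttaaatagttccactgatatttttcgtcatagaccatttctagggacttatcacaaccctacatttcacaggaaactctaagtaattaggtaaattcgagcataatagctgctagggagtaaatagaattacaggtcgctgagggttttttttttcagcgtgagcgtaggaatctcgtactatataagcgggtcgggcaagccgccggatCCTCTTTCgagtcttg
Rpl41: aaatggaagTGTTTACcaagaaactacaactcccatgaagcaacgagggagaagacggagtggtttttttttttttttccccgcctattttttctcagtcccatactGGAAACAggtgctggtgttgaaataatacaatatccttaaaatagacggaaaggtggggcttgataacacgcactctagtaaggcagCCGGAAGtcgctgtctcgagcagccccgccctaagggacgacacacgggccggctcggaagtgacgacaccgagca
Rpl38: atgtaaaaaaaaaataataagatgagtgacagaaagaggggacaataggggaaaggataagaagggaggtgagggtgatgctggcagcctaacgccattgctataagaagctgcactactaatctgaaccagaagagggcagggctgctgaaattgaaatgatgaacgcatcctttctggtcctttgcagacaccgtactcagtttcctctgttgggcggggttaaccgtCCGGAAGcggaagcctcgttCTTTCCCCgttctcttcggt
Rps6: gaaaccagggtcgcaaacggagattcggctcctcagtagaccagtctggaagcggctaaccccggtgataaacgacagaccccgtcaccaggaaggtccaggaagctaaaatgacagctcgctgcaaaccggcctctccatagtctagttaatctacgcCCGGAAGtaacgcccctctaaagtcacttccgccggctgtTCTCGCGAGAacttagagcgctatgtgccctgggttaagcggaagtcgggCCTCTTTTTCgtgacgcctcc
Rps19: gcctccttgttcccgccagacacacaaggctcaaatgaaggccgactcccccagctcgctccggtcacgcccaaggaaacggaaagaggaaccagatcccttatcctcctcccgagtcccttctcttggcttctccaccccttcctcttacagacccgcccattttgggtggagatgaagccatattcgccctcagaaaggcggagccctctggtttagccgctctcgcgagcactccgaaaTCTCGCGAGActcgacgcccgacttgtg

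Forkhead letters were uncommon in these promoters. RefSeq gave a window of 300 bases, from 250 before to 50 after the start, for 57 of the 75 members. On either strand, TGTTTAC was found in 1 of 57 (1.75%), against 3.59% of 27025 genes with a window and 2.81% of the 6325 that had a region within 1000 bp of their start. TGTTTNC, which contains the former, was found in 4 of 57 (7.02%), against 20.5% and 14.4%. The insulin response letters TGTTTTG were found in 1 of 57 (1.75%), against 6.18% and 3.68%. The members with TGTTTNC were Rpl13, Rpl19, Rpl24 and Rpl41, and the member with TGTTTTG was Rplp0.

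Several other letters were found in more of the windows. CCGGAAG, the core bound by ETS factors such as GABP, stood in 22 of 57 windows (38.6%), against 9.25% of all genes and 22.9% of genes with a region within 1000 bp. The palindrome known as a binding sequence of Zbtb33 (Kaiso) stood in 6 of 57 (10.5%), against 0.518% and 1.38%, in Rpl10a, Rpl12, Rpl26, Rps19, Rps28 and Rps6. The YY1 letters AAGATGGC were found in 8.77% (2.89% and 5.53%), the NRF1 palindrome in 3.51% (0.988% and 2.64%), the SP1/KLF letters GGGCGG in 59.6% (36% and 71.1%) and TATAAA in 7.02% (14.1% and 5.64%). TOP-like runs stood at the start in 28 of 57 (49.1%), against 30.8% and 32.0%. They were sought only within 10 bases of the RefSeq start, so a window without one does not show that a gene lacks the TOP motif. Of the ribosomal protein genes without a region, 7 had a window. TOP-like runs stood in 6 of these, TATAAA in 3, CCGGAAG in 3 and TGTTTNC in 1. These are matches of letters in a window, not binding sites, and a window without a match says nothing of FoxO1 itself. In the 5 members with any forkhead or insulin response match the median signal of the region nearest to the start was 13.1, 12.5 and 18.9, and in the 52 without one it was 11.5, 12.7 and 19.3. For 4 of the 52 that region lay over 1000 bp from the start.

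**Figure D1:**
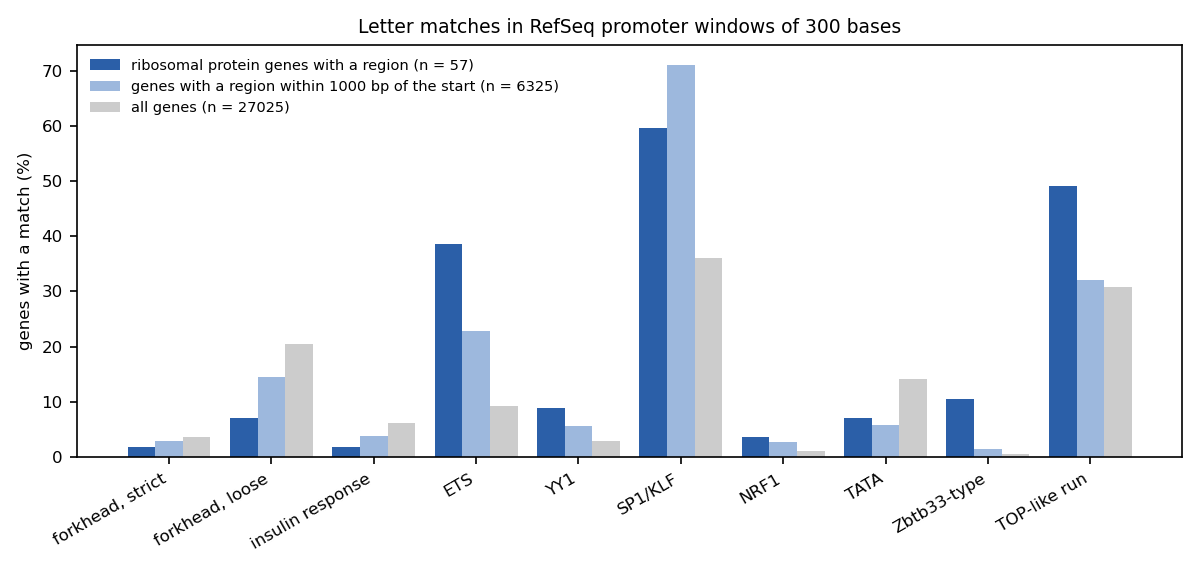
Share of genes (%) with a letter match in RefSeq promoter windows of 300 bases, for 57 ribosomal protein genes with a region, 6325 genes with a region within 1000 bp of their start and 27025 genes with a window. The loose forkhead letters stood in 7.02% of the ribosomal protein genes and in 20.5% of all genes, the ETS letters in 38.6% and 9.25%.

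Most ribosomal protein genes carried FoxO1 signal over their own start. RefSeq lists 84 protein-coding genes that match the rule, and 75 of them had a region, against 44% of 21900 protein-coding genes. Among the 9 without one were Rpl3, Rpl15, Rpl36a, Rpl39 and Rps4x, and the copies Rpl10l, Rpl32l and Rpl39l. Rpl36a, Rpl39 and Rps4x lie on the X chromosome, where 1 of 4 matching genes, Rpl10, had a region. The share of all genes of the X chromosome with a region was not counted, so this is not a trait of the members. The value region of 57 members (76%) lay within 1000 bp of the member's start and 69 (92%) overlapped a CpG island, against 56.5% and 76.5% of all genes with a region. The RefSeq start itself lay inside the nearest region in 51 of the 57 members with a window. Value regions had a median length of 728 bp, against 536 bp over all genes.

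The value region was not always the member's own. All 18 members whose value region lay over 1000 bp away had it nearer to the start of another gene. For Rpl36 it lay 3460 bp upstream and 164 bp from 2410015M20Rik, for Rps24 28 bp from Polr3a, a subunit of RNA polymerase III, and for Rpl4 118 bp from Snapc5. Within 1000 bp, 4 of 57 regions were nearer to a neighbour's start (Rpl7a, Rps2, Rps27a and Rps28). With the nearest region in place of the highest, 69 members had a region within 1000 bp of their start, and the exceptions included Rpl3l, Rpl13a, Rps10, Rps21 and Rps29. Only 9 value regions were assigned to a single gene, and the most genes assigned to one value region were 10. Signal over a shared start cannot be divided between the genes.

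**Figure D2:**
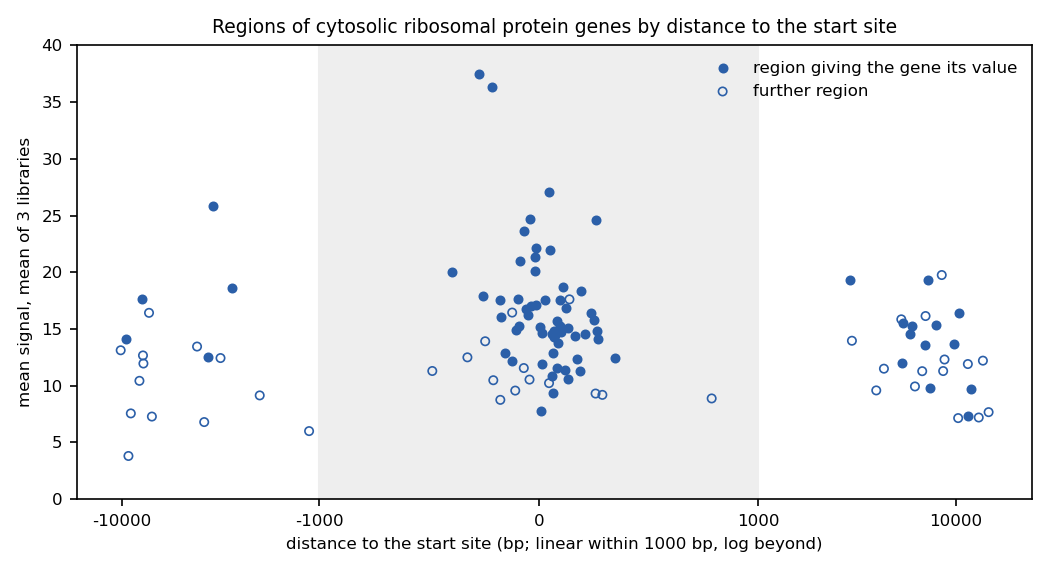
Mean FoxO1 signal (mean of 3 libraries) of every region of the 75 genes against its distance to the gene's start in bp, linear within 1000 bp and logarithmic beyond. Filled points give the gene its value, open points are further regions, and the highest points, Rpl7 and Rplp2, lie within 1000 bp upstream.

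Signal at ribosomal protein genes was moderately above that of genes in general. The median of the 75 members' mean signal, a coverage value in the units of the deposited table, was 12.2, 14.3 and 20, against 10.8, 13.3 and 16.7 over all 11718 genes. In Veh/Sham the members ranged from 4.13 (Rps21) to 34.9 (Rpl7), and the highest gene of all read 67.3. At the 69 starts with their own region the medians were 12.1, 12.8 and 19.5, against 10.1, 11.7 and 15.7 for 8485 genes chosen in the same way. The genes of mitochondrial ribosomal proteins, 67 with a region, had medians of 11.3, 13.8 and 17.2. No test of these differences was made, since genes of a library are not replicates.

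The authors called an interval in Veh/Sham for 65 of the 75 value regions (86.7%), in Iso for 52 (69.3%) and in TAC for 63 (84%). Over all genes the shares were 66.4%, 50.9% and 61.7%. All 3 libraries had a call at 49 members (all genes, 38.2%) and none at 4, Rpl10, Rps16, Rps9 and Rpsa (all genes, 17.3%). The calls of those 4 regions were 0 in each library used here. Calls did not follow the signal to the same degree in each library. In Veh/Sham every uncalled member read 8 or less and every called member 8 or more. In TAC 9 of 12 uncalled members read more than the lowest called member, Rpl37a at 11.9, and Rpl41 was uncalled at 25.2. In Iso 18 of 23 uncalled members read more than the lowest called member, Rps15a at 9.77.

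Rpl7, a large subunit protein, had the highest signal. Its region (mm10, chromosome 1, 16104162 to 16105246) read 34.9, 38.6 and 39.1. The 3 values lay close together. Its peak depths, the table's peak values, taken here as the highest number of overlapping fragments in the region, were 87, 97 and 93, and the TAC to Veh/Sham ratio was 1.07 (exact 95% counting interval 0.79 to 1.45). Such intervals cover counting error only and not the difference between mice.

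The stalk proteins recruit translation factors to the large subunit. Rplp2 (chromosome 7, 141446999 to 141447879, the promoter printed above) read 29.0, 36.3 and 43.6, the highest TAC value of any member. Its peak ratio of TAC to Veh/Sham was 1.40 (80 and 57 fragments, interval 0.99 to 2.01). Rplp0, which anchors the stalk, read 14.6, 12.0 and 20.6. Rplp1, the partner of Rplp2, read 7.65, 12.6 and 18.3, with a peak ratio of 2.67 (24 and 9 fragments, interval 1.20 to 6.52). All 3 stalk genes were highest in TAC. By mean signal Rplp0 was lowest in Iso where the other 2 were lowest in Veh/Sham, but its peak depths were 25, 26 and 42.

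Among small subunit genes Rps27a, which encodes ubiquitin fused to a ribosomal protein, was highest by the mean of the 3 libraries, as well as in Veh/Sham and in Iso. In TAC 6 other small subunit genes read higher, such as Rps14 at 24.6 and Rps2 at 24.5. The Rps27a region (chromosome 11, 29547427 to 29548557) read 27.8, 30.2 and 23.2, and lay 48 bp from the Rps27a start and 42 bp from that of 1700034F02Rik. TAC was the lowest of its 3 values, with a peak ratio to Veh/Sham of 0.77 (interval 0.53 to 1.13). Rpl36 read 23.2, 25.5 and 28.9 at the region it shared with 2410015M20Rik. The region at Rpl36's own start, 140 bp into the gene, read 14.1, 12.6 and 26.2. Rpl41, the smallest ribosomal protein, read 20.1, 28.8 and 25.2, with peak depths of 52, 79 and 52. Its Iso to Veh/Sham peak ratio was 1.52 (interval 1.06 to 2.20).

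The lowest members over the 3 libraries were Rps10, Rpsa and Rpl37a. Rps10, a gene mutated in Diamond-Blackfan anaemia in humans, read 8.64, 4.18 and 9.10, at a region 11537 bp from its start and 253 bp from that of Nudt3. Rpsa, a small subunit protein also known as the laminin receptor, read 6.09, 5.18 and 12.1 at its own start. Rpl37a read 9.05, 7.29 and 11.9. By mean signal all 3 were lowest in Iso and highest in TAC. Peak depths were equal in Veh/Sham and Iso for Rpsa (8, 8 and 17) and Rpl37a (14, 14 and 22). Signal below Veh/Sham in Iso and above it in TAC was found at 15 of the 75 members, against 20.8% of all genes.

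**Figure D3:**
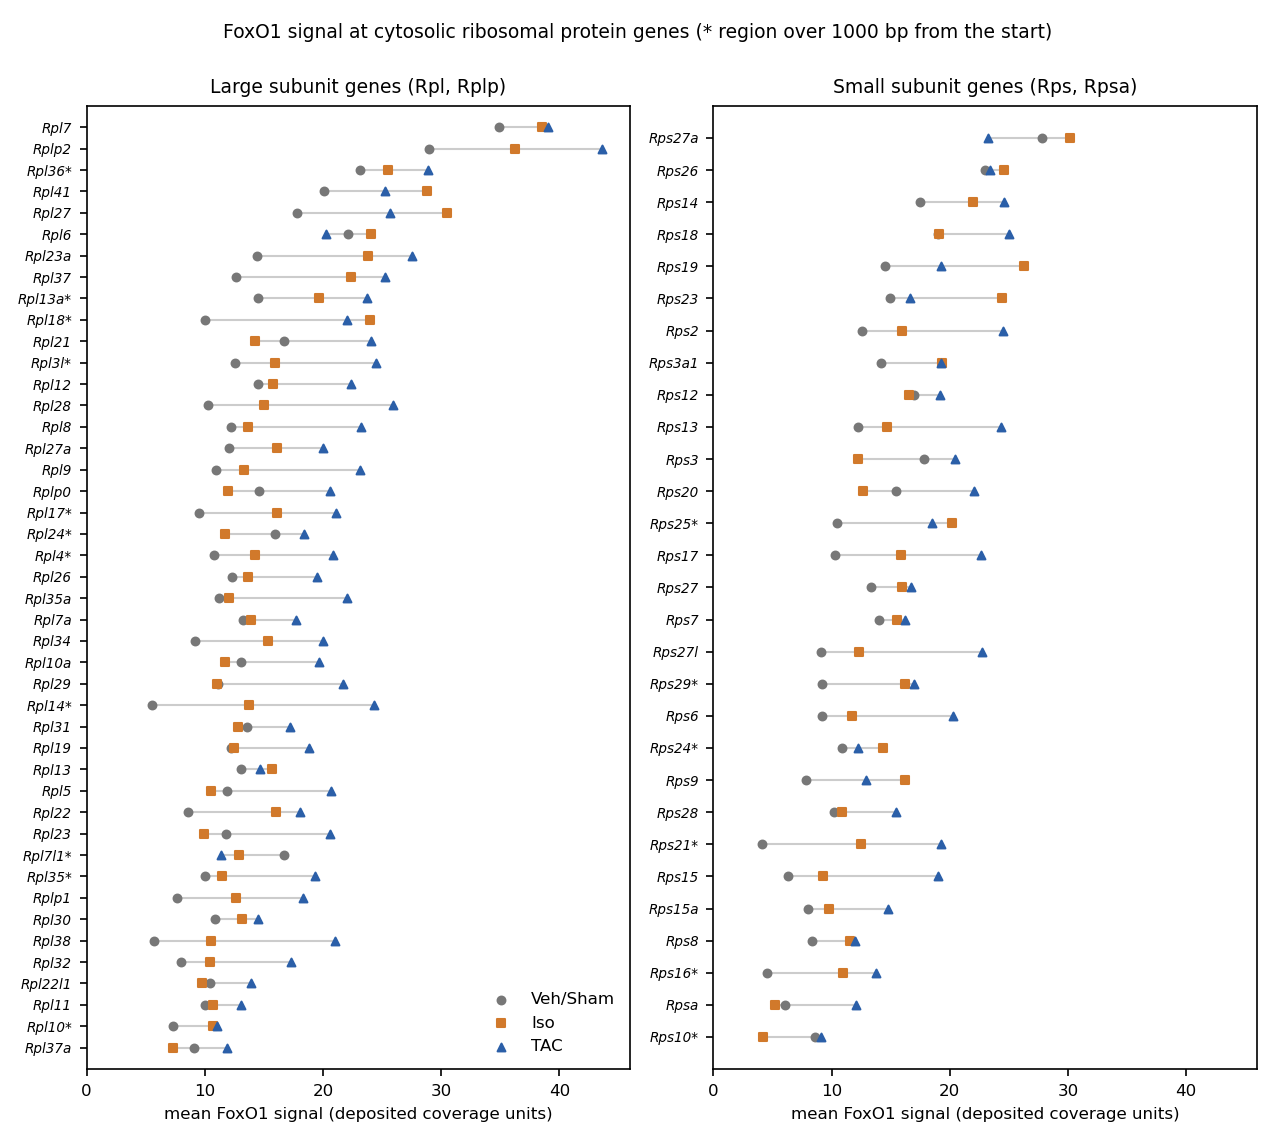
Mean FoxO1 signal (x axis, deposited coverage units) of 73 of the 75 genes in Veh/Sham (circles), Iso (squares) and TAC (triangles), 1 library each, ordered by the mean of the 3, with large subunit genes on the left and small subunit genes on the right. Over all 75 genes TAC was the highest value for 60, Iso for 14 and Veh/Sham for Rpl7l1 alone.

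The first comparison asked where FoxO1 signal stood under isoproterenol. Most members were somewhat higher in Iso, as were most genes. Ratios are log2 of (mean signal + 1), which understates the ratio of low regions, and a rule of size set at 1.5-fold decided whether a gene was counted as changed. By it 18 of 75 members were higher (24%, against 25.3% of all genes), 1 was lower (1.33%, against 5.4%) and 56 lay between. The members' median log2 ratio was 0.26, and that of all genes 0.26. Relative to the median of all genes, 6 members were 1.5-fold higher and 4 lower (8% and 5.33%, against 13.7% and 11.6% of all genes). At the 69 own starts 12 were higher (17.4%, against 21% of 8485 genes) and 1, Rps24, was lower (against 8.05%), and the median was 0.21 (all genes, 0.19). With the 4 copies (Rpl3l, Rpl7l1, Rpl22l1 and Rps27l) left out, large subunit genes other than the stalk had a median of 0.25 (39 genes). Small subunit genes had a median of 0.32 (29 genes). At the own starts, with the stalk among the large subunit, the medians were 0.14 (41 genes) and 0.25 (25 genes).

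The highest Iso to Veh/Sham ratios lay at regions away from the members' starts. Value regions were picked by their signal over libraries that include Iso and TAC, which favours regions high in these. At the starts of Rpl18, Rpl14 and Rps16 the log2 ratios were -0.34, -0.01 and 0.58, and Rps21 had no other region. Rps21, a small subunit protein, had the highest (log2 ratio 1.40), at a region 5331 bp downstream of its start that was called in TAC alone. It read 4.13, 12.5 and 19.3, with peak depths of 6, 16 and 23 (Iso to Veh/Sham peak ratio 2.67, interval 0.99 to 8.32). The Rpl18 region (1.18), 2757 bp upstream, read 10, 23.9 and 22, and its peak ratio was 1.5 (interval 0.82 to 2.79). Rpl14 (1.17) read 5.57, 13.8 and 24.4, and Rps16 (1.11) read 4.56, 11 and 13.8. Each of these 4 had its lowest value in Veh/Sham.

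The lowest ratio was that of Rps10 (-0.89), whose peak depth was 12 fragments in the control and 6 under isoproterenol (peak ratio 0.5, interval 0.15 to 1.44). Rps3, which lines the channel where messenger RNA enters the small subunit, followed at its own start (-0.51). It read 17.9, 12.3 and 20.4, with a peak ratio of 0.70 (interval 0.42 to 1.14). Rpl24 (-0.41) read 16, 11.8 and 18.4 at a region 7958 bp downstream, and its peak depths were 31, 31 and 32. For Rpl24 the mean signal was lower in Iso while the peak depth was the same. Rpl7l1 followed at -0.35.

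The second comparison, of TAC with Veh/Sham, concerned pressure overload. Signal was higher in TAC at 72 of the 75 members (96%, against 85.3% of all genes), and no member was 1.5-fold lower. By the rule of size 39 members were higher (52%, against 46.1% of all genes), 0 were lower (against 2.78%) and 36 lay between. Median log2 ratios were 0.59 for the members and 0.53 for all genes, a shift in the same direction in both. Relative to the median of all genes the members' median was 0.06, and 8 members were 1.5-fold higher and 3 lower (10.7% and 4%, against 14.5% and 12.5% of all genes). At the own starts 36 of 69 were higher (52.2%, against 45.7%) and 0 lower (against 3.3%), with a median of 0.59 (all genes, 0.53). In the same subunit sets, without copies, large subunit genes had a median of 0.68, with 23 of 39 higher, and small subunit genes 0.49, with 13 of 29 higher. At the own starts, with the stalk among the large subunit, the medians were 0.63, with 24 of 41 higher, and 0.49, with 11 of 25 higher.

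Rps21 (1.98) and Rpl14 (1.95) again had the highest ratios, but away from their starts. For Rpl14 that region was picked over the one at its start, where the log2 ratio was -0.30. At the own start, Rpl38 was highest. Rpl38, a large subunit protein needed in mice for the translation of Hox messenger RNAs, read 5.67, 10.6 and 21.0 (log2 ratio 1.72). The region (chromosome 11, 114668739 to 114669040) began after the end of the printed Rpl38 window and was called in TAC alone. Its peak depths were 8, 13 and 26 (TAC to Veh/Sham peak ratio 3.25, interval 1.43 to 8.31). Rps15 followed (1.45), reading 6.33, 9.24 and 19.0, with a peak ratio of 2 (24 and 12 fragments, interval 0.96 to 4.39). Rps6, the target of S6 kinase downstream of mTOR, read 9.22, 11.7 and 20.3 (1.06), with a peak ratio of 2.93 (41 and 14 fragments, interval 1.56 to 5.82). In Rpl38, Rps15 and Rps6 alike the values rose from Veh/Sham to Iso to TAC, an order held by 45 of the 75 members (60%, against 45.7% of all genes).

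At the value regions, only 3 members read lower in TAC than in Veh/Sham. Rpl7l1, a copy of Rpl7 with a role in ribosome assembly, had the lowest ratio (-0.52), at a region 9779 bp downstream of its start and 242 bp from that of 2310039H08Rik. It read 16.7, 12.9 and 11.4, while the region at the Rpl7l1 start read 9.17, 10.6 and 11.9. Rps27a (-0.25) was described above. Rpl6, a large subunit protein, read 22.1, 24.1 and 20.3 at its own start (-0.12), with a peak ratio of 0.77 (interval 0.50 to 1.19). Rps26, another Diamond-Blackfan anaemia gene in humans, was next with 23.0, 24.6 and 23.4 (0.02). At the own starts 65 of 69 members read higher in TAC than in Veh/Sham (94.2%, against 84.4% of genes chosen in the same way). There Rpl14 (-0.30) and Rpl17 (-0.22) were lower, although both were higher at their value regions.

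TAC was also set against Iso directly. The comparisons share libraries: the Veh/Sham library stands in both comparisons above, and the Iso and TAC libraries each return here. The median log2 ratio was 0.37 over the members and 0.29 over all genes, and 27 members were 1.5-fold higher in TAC (36%, against 27.3%), 0 lower (against 5.91%) and 48 between. Relative to the median of all genes, 7 were higher and 5 lower (9.33% and 6.67%, against 12.7% and 13% of all genes). With peak depths in place of mean signal, and not relative to that median, 17 were higher and 4 lower. The shares of all genes by peak depth were not counted. The TAC to Iso ratio of summed peak depths was 1.09 for the members and 1.09 for all genes. At the own starts the counts by mean signal were 26 of 69 higher (37.7%, against 31.7%) and 0 lower (against 3.88%). Rpsa had the highest ratio (1.08, from 5.18 to 12.1), with peak depths of 8 in Iso and 17 in TAC (peak ratio 2.13, interval 0.87 to 5.69). Rpl23, a protein that also binds the p53 regulator Mdm2, read 11.8, 9.93 and 20.6 (0.98, peak ratio 2.07, interval 1.08 to 4.12). Rps15 (0.97) and Rps10 (0.96) followed.

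Some members stood highest in Iso. Rps23, which lies at the decoding centre of the small subunit, read 14.9, 24.4 and 16.7 (TAC to Iso log2 ratio -0.53), with peak depths of 24, 46 and 26. Its Iso to Veh/Sham peak ratio was 1.92 (interval 1.15 to 3.28) and its TAC to Iso peak ratio 0.57 (interval 0.34 to 0.93). Rps19, the gene most often mutated in Diamond-Blackfan anaemia in humans, read 14.5, 26.3 and 19.2 (-0.43) at a region 395 bp upstream of its start in the deposited table, over the promoter printed above. Rps27a had a ratio of -0.36. For these 3 genes Iso was the highest library, as it was for 14 members (18.7%, against 24.6% of all genes), while TAC was highest for 60 (80%, against 66.8%) and Veh/Sham for 1, Rpl7l1 (against 8.6%).

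**Figure D4:**
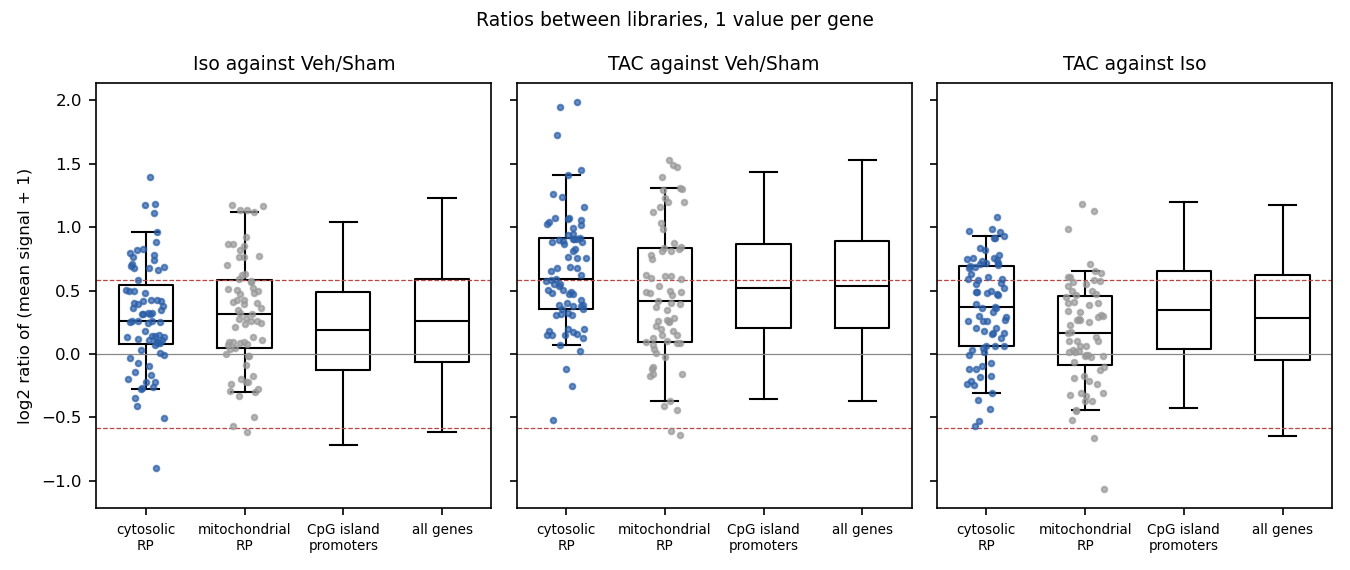
Log2 ratios of (mean signal + 1) between libraries, 1 value per gene, for 75 cytosolic and 67 mitochondrial ribosomal protein genes (RP, points), 5962 genes whose region is a CpG island promoter and all 11718 genes. Boxes show quartiles with the median, whiskers the 5th and 95th percentiles, dashed lines 1.5-fold. For Iso against Veh/Sham, TAC against Veh/Sham and TAC against Iso, the cytosolic members' medians were 0.26, 0.59 and 0.37, and those of all genes 0.26, 0.53 and 0.29.

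The same counts were made among genes whose region is a CpG island promoter. There 18.9% of 5962 genes were 1.5-fold higher in Iso than Veh/Sham, 45% in TAC than Veh/Sham and 30.2% in TAC than Iso, and 6.83%, 2.58% and 2.73% were lower. The 57 members whose own value region was of that kind had 11, 27 and 21 higher (19.3%, 47.4% and 36.8%) and 0 lower in each, with median log2 ratios, in the same order of comparisons, of 0.25, 0.55 and 0.47, against 0.19, 0.52 and 0.35. Mitochondrial ribosomal protein genes had median ratios of 0.31, 0.42 and 0.16, with 17, 27 and 8 of 67 higher (25.4%, 40.3% and 11.9%, against 25.3%, 46.1% and 27.3% of all genes).

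Members with more than 1 region allowed their regions to be set side by side. There were 33 such genes (44%, against 46.2% of all genes, 25 with 2 regions, 7 with 3 and Rpl18 with 4), and 30 had a region at the start together with 38 gene and region pairs over 1000 bp away. The further region read lower than the one at the start in 28 of 38 pairs for the control library, 22 for Iso and 28 for TAC. Median signals were 8.93, 11.6 and 15.4 at the further regions and 12.2, 12.4 and 19.0 at the starts. The Iso to Veh/Sham log2 ratio was higher at the further region in 24 of 38 pairs, and the TAC to Veh/Sham ratio in 25. Some further regions were called in a treated library alone, such as one of Rpl14 in TAC and one of Rpl37 in Iso. Such regions can have entered the merged regions through that library, which favours higher ratios to Veh/Sham. The counts are therefore no test of a difference between starts and further regions.

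Rpl14 had the largest gap between the TAC to Veh/Sham ratios of its regions. The region 207 bp upstream of its start read 11.3, 11.2 and 9, and the region 5841 bp downstream, 159 bp from the start of 5830454E08Rik, read 5.57, 13.8 and 24.4. Peak depths in TAC were 13 and 34. At Rpl19 the start read 12.2, 12.5 and 18.9, and the region 3824 bp upstream read 1.5, 3.63 and 15.3. At Rpl37 the region 8137 bp upstream read 1.57, 18.3 and 11.4, with peak depths of 2, 20 and 14, while the start read 12.6, 22.4 and 25.3.

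Lower ratios at the further region were also seen. Rps15 read 6.33, 9.24 and 19.0 at its start, and 7, 7.43 and 7 at a region 10289 bp downstream. Rpl7 had a second region 1126 bp upstream that read 10.2, 2.57 and 5.25, beside the 34.9, 38.6 and 39.1 of the region next to it. A region 7276 bp upstream of Rps14, a gene of the 5q- syndrome in humans, read 10.5, 27.7 and 11, and its start 17.4, 22.0 and 24.6. There the Iso to Veh/Sham log2 ratio was higher at the further region (1.32 against 0.32) and the TAC to Veh/Sham ratio lower (0.06 against 0.47). For these genes the value depended on which region was read.

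**Figure D5:**
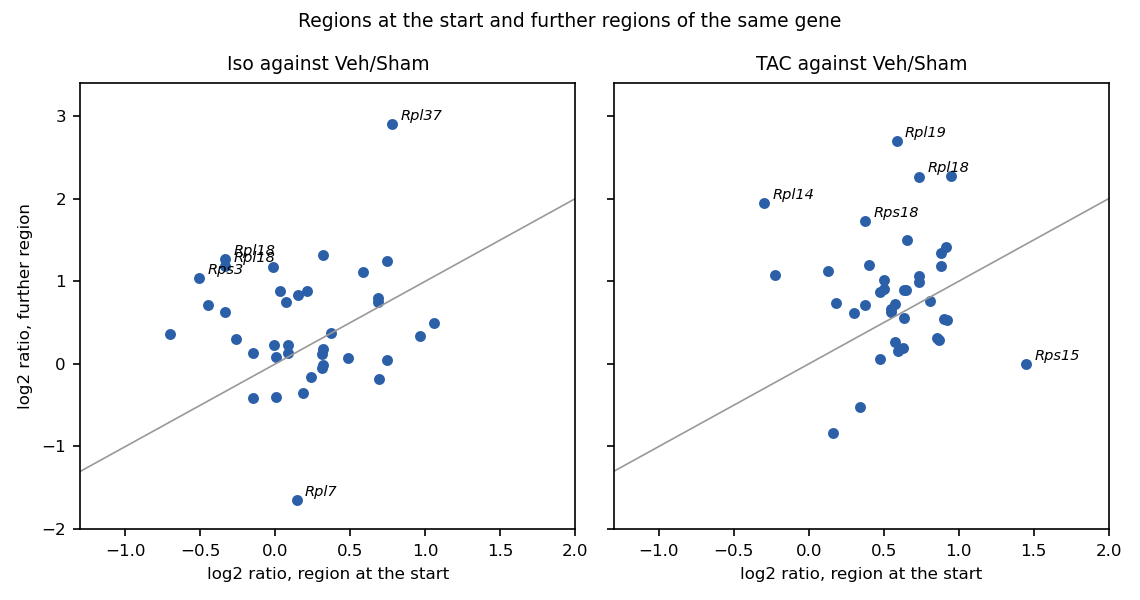
Log2 ratios of (mean signal + 1) at the region within 1000 bp of the start (x axis) and at each further region of the same gene (y axis), 38 pairs from 30 genes, against Veh/Sham for Iso (left) and TAC (right). The line marks equal ratios, and 24 and 25 of the 38 points lie above it.

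Copies of ribosomal protein genes were compared with their parents. Rpl22l1 read 10.5, 9.77 and 13.9, and Rpl22, the parent, 8.61, 16.1 and 18.1. The log2 ratio of Iso to Veh/Sham was -0.09 at Rpl22l1 and 0.83 at Rpl22. Rps27l, induced by p53, read 9.08, 12.3 and 22.8, and Rps27 13.3, 15.9 and 16.7, with TAC to Veh/Sham log2 ratios of 1.24 and 0.30. Rpl3l, which replaces Rpl3 in heart and skeletal muscle, had no region at its start. The value region it was given is the Rps2 promoter (12.6, 16 and 24.5), 7861 bp upstream and 3 bp from the start of Snhg9, and its other region lay 8638 bp downstream (8.38, 11.1 and 14.4). Rpl3 had no region.

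Many ribosomal protein genes carry small nucleolar RNAs in their introns, and the value regions of 22 members were also assigned to such an RNA. Their median signals were 12.6, 16 and 20.7 in Veh/Sham, Iso and TAC, and those of the 53 others 11.1, 13.7 and 19.5. Of the 22, 4 were 1.5-fold higher in Iso and 14 in TAC than in Veh/Sham, and of the 53, 14 and 25. The shares were 18.2% and 63.6% of the 22 and 26.4% and 47.2% of the 53, against 25.3% and 46.1% of all genes.

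The naming rule leaves out 4 further genes with a region, among them the ribosomal proteins Fau and Rpl36al and the ribosome-bound scaffold Gnb2l1 (now Rack1). None of the 4 was 1.5-fold higher in Iso than in Veh/Sham, and 2 were in TAC (all genes, 25.3% and 46.1%). Of 49 genes of ribosomal RNA synthesis and ribosome assembly, 43 had a region, with median log2 ratios of 0.34 in Iso and 0.65 in TAC against Veh/Sham. Among them 12 were higher (27.9%, against 25.3% of all genes) and 1 lower (2.33%, against 5.4%) in Iso, and 25 higher (58.1%, against 46.1%) and 0 lower (against 2.78%) in TAC. All 11 genes that link growth signals to ribosomal protein messenger RNAs, such as Mtor, Larp1 and Rps6kb1, had a region. Of the 11, 3 were higher (27.3%) and 0 lower in Iso, and 9 higher (81.8%) and 1 lower (9.09%) in TAC, against the same shares of all genes.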

How the data were processed

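FoxO1 ChIP-seq libraries of 3 conditions, 1 per pool of hearts, were used. Per the submitters' processing notes, BWA and SICER were among the tools and mm10 was the build. Per the labels, each library holds spiked-in Drosophila chromatin, and any scaling of libraries is not stated, so every ratio between libraries rests on values as deposited. The authors deposited a table of merged regions with, per library, a mean signal (coverage) over the region, a peak value, treated here as a depth of overlapping fragments, and a call of 1 or 0. Depth per library is not given in the table, so precision was judged from peak depths. CpG islands, gene assignments and distances to starts are those of the table. Another 6 columns, from 2 libraries named for insulin with no matching labels, were left aside, and whether regions called in none of the 3 libraries entered the table through them was not tested.

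The members and lists were chosen with earlier results of these data known. Log2 ratios used a pseudocount of 1 and a rule of 1.5-fold over all genes, with no test. Exact 95% Clopper-Pearson intervals of peak ratios cover counting error only, and those of genes picked for extreme ratios are no test of them. Named were the 5 highest and 3 lowest members by signal, the 4 highest and 4 lowest per comparison, stalk genes, Rpsa, Rps6, Rps27a, copies, and examples of members with distant or several regions, which were picked after their values were seen. Values printed for Rpl22, Rps14 and Rps27 were also chosen afterwards. Some genes that this rule names are not reported here. Promoter windows came from RefSeq (GRCm38.p6), 1 per gene, matched by symbol. Alternatives were peak depths, pseudocounts of 5 and 0.1, centring on all genes, dropping the weakest 25% of regions, called regions only, the region nearest the start, members without copies, and promoter widths. The functions were tested on simulated data. Scripts ran under Python 3.11.15 with scipy 1.17.1, pandas 2.3.3, numpy 2.4.6 and, for figures, matplotlib 3.10.9.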

Additional observations from a re-analysis of the deposited data

How the results depend on the processing

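Results here are the members' median log2 ratios, their counts at 1.5-fold, their promoter share and their calls. Under an alternative, 78 values stayed within 1.5 times the count, or within the order-statistic interval of the median over members, and 21 did not. No median changed sign. For Iso against Veh/Sham the median of 0.26 became 0.42 with peak depths and 0.0018 relative to all genes. Its 18 higher members (24% of 75) became 10 with a pseudocount of 5, 6 relative to all genes and 11 (19.3% of 57) with CpG island promoters only. The last is a smaller set of members. Its 1 lower member became 0, 4 and 0 in the same settings. That count was 0 without the 25% of regions with the lowest signal and 2 with the region nearest the start. For TAC against Veh/Sham the median of 0.59 became 0.058 relative to all genes, and the 39 higher and 0 lower members became 8 and 3. For TAC against Iso the median of 0.37 became 0.18 with peak depths and 0.088 relative to all genes. Its 27 higher members became 17 with peak depths, 17 with a pseudocount of 5 and 7 relative to all genes, and its 0 lower members became 4 with peak depths, 1 with a pseudocount of 0.1 and 5 relative to all genes. The cause was not tested, apart from centring, which removes the shift of all genes. CpG island promoters only and counting each region once were chosen after seeing the data. The members' median peak depth of 20 fragments in Veh/Sham limits single ratios. No paired analysis was possible because each condition had 1 library, and none could be left out.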
